A study of Mus musculus with 12 samples.

Results

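Cnp, Sirt2, Ermn, Tppp, Gsn, Anln, Sept4 and Cryab encode proteins of the cytoplasm and cytoskeleton of non-compact myelin, the parts of the sheath in which the membrane layers are not pressed together. The genes were taken by symbol from the 21937 genes of the deposited table, all 8 were found, and all 8 were among the 14987 genes tested. RNA was sequenced from a light-weight membrane fraction of brain in which myelin was enriched. The mice were male wild type c57Bl6/N animals of one colony, and 4 ages were compared, postnatal days 18 (P18) and 75 (P75), 6 months and 24 months. Each age had 3 samples, which makes 12 libraries. No genotype or treatment differed between the groups, and age was the single factor. The labels do not say whether the samples of an age came from separate animals, so the p-values rest on a spread between libraries that may be technical.

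Compact myelin is formed when the cytoplasm between the layers of the oligodendrocyte membrane is squeezed out, which needs myelin basic protein, Mbp. Cytoplasm is kept at the inner and outer tongue, in the loops beside the nodes of Ranvier and in channels through the sheath, and it carries vesicles, enzymes and messenger RNA to the growing inner tongue. Actin filaments, microtubules and, in the mature sheath, septin filaments shape these spaces, and messenger RNA of myelin genes is itself found in myelin-enriched membranes.

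All values are normalised read counts, that is reads per gene divided by 1 size factor per library. The 12 libraries held 20299052 to 27214385 reads. Between 1131 and 38259 reads fell on each of the 8 genes in each library, so the counting error of a value was at most 2.97%. Mbp, a main gene of compact myelin, stood far above all 8 (mean 3800540 at P18). Snap25, a neuronal synapse gene, had 109010 ± 11310 (SD, n = 3) at P18 and 91614 ± 1371 at 24 months, so RNA of neurons was present too. In a bulk fraction, fewer cells of a type, less myelin and less RNA per cell cannot be told apart.

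One library stood apart. In P18 replicate 3 the 8 genes had between 46.1% and 85.5% of the mean of P18 replicates 1 and 2, while the median over the 14987 genes tested was 101.4% and the 5th percentile 64.4%. Mbp was at 46.1%. The summed markers of mature oligodendrocytes were at 47.4%, those of newly formed oligodendrocytes at 48.0%, those of astrocytes at 74.4% and those of microglia at 87.3%, against 95.9% for oligodendrocyte precursors and 118% for neurons. Counts of genes called are therefore given with and without this library, with the genes named whose call changed.

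Across all ages, 7 of the 8 genes differed at some age in a moderated F test (limma, adjusted p at most 0.05), against 77.4% of all genes tested. For Cnp, Sirt2 and Gsn adjusted p was at most 1.29e-07, while for Tppp (0.036), Anln (0.0472), Sept4 (0.0316) and Cryab (0.048) it lay close to the threshold. The count was 4 without the filter on low values, 4 on leaving out P75 replicate 1, 6 months replicate 1 or 24 months replicate 1 or 3, and 3 on leaving out P75 replicate 2 or 3 or 24 months replicate 2. The 8 genes followed different courses. Cnp, Sirt2 and Gsn fell steeply between P18 and P75. Ermn passed no comparison, Tppp and Cryab were lower at 24 months than at P18, Sept4 was lower at 24 months than at P75, and Anln alone was higher at 6 and 24 months than at P18. Leaving out P18 replicate 3, Ermn, Tppp and Cryab fell from P18 to P75 as well and Anln passed no comparison.

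**Figure D1:**
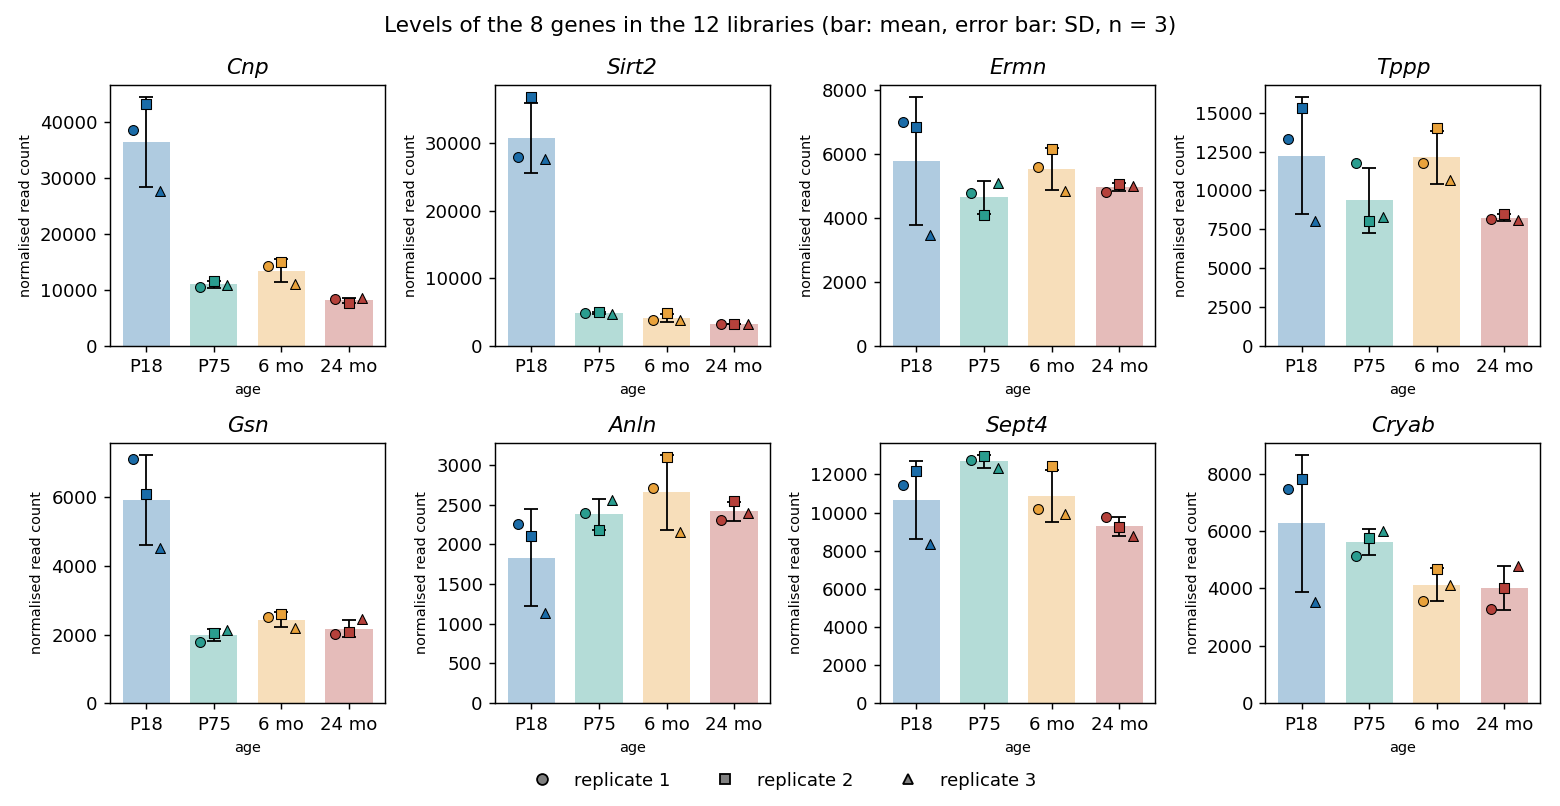
Normalised read count (each axis from 0) of each gene at each age, with 1 symbol per library, bars for the mean and error bars for the SD (n = 3). Cnp, Sirt2 and Gsn are high in all 3 P18 libraries, and the triangle of P18 replicate 3 is the lowest P18 value in every panel.

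Windows of 250 bases before the annotated start are shown for 4 genes that have 1 start in the RefSeq table (GRCm38.p6). For 2 of them the early fall did not depend on P18 replicate 3 (Cnp and Sirt2). The other 2, Ermn and Tppp, were not called lower at P75 with all libraries but were without that library. At this step Ermn passed in 1 of 23 alternative settings and Tppp in 2. The reads were aligned to another build, mm9, and no binding data belong to this series. Capitals mark CCAAT and GGGCGG (the GC box) on either strand, which do not overlap in these windows.

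Cnp, chr11:100574689-100574938, plus strand: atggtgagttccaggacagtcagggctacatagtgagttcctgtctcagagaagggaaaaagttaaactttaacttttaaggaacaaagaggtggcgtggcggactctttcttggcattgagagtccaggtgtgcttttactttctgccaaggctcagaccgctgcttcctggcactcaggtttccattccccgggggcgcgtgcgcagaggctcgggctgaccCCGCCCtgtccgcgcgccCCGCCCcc

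Sirt2, chr7:28766502-28766751, plus strand: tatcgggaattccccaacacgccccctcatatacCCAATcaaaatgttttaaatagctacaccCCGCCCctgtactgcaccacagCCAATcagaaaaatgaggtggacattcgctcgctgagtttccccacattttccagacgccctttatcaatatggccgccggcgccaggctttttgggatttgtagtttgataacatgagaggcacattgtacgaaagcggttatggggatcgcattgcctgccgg

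Ermn, chr2:58052865-58053114, minus strand: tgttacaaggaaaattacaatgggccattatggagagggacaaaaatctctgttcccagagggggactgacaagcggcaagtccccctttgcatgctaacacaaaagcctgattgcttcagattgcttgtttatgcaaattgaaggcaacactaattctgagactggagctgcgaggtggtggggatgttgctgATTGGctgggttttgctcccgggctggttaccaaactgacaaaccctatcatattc

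Tppp, chr13:74009169-74009418, plus strand: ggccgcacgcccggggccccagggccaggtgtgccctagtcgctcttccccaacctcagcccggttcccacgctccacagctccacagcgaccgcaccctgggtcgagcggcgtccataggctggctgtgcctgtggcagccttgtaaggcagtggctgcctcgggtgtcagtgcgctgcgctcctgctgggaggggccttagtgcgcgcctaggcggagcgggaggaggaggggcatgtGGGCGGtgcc

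Of 32851 such windows of annotated mouse genes, 33.8% hold CCAAT and 32.7% hold GGGCGG on either strand. The window of Cnp holds 2 GC boxes, whose first bases lie 26 and 8 bases before the start, and 0 CCAAT. That of Sirt2 holds 2 CCAAT, at 216 and 165 bases before the start, and 1 GC box at 187. Ermn has 1 CCAAT at 56 and Tppp 1 GC box at 10. GC content was 57.2% for Cnp, 50% for Sirt2, 47.2% for Ermn and 71.6% for Tppp, beside a median of 52.4%. Cnp, Sirt2 and Tppp each hold a GC box. A match of letters is a description and not a site.

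Cnp encodes the cyclic nucleotide phosphodiesterase of myelin, which binds actin and is known to keep cytoplasmic channels open against the compacting action of Mbp. Its values in replicates 1, 2 and 3 were 38563, 43229 and 27650 at P18, 10448, 11629 and 10880 at P75, 14197, 14989 and 11111 at 6 months and 8291, 7570 and 8444 at 24 months. Every P18 library lay above every later library, and every 24-month library lay below every other. Cnp fell by 1.71 ± 0.15 (SE) on the log2 scale from P18 to P75, a 3.27-fold decrease (limma on log2(value + 1), adjusted p = 6.69e-07). The difference between 6 months and P75 was 0.28 ± 0.15 (adjusted p = 0.124), and from 6 months to 24 months Cnp fell by 0.72 ± 0.15 (adjusted p = 0.00486). Without P18 replicate 3 the first fall was 1.90 (log2 -1.895, adjusted p = 6.6e-09).

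Sirt2 encodes a deacetylase that acts on tubulin and other proteins and is abundant in non-compact myelin. Its P18 values were 27874, 36774 and 27628. They were 4803, 5004 and 4658 at P75, 3815, 4795 and 3767 at 6 months and 3248, 3190 and 3158 at 24 months. No P18 value overlapped any later one, and the 24-month values lay below all others. Sirt2 fell by 2.66 ± 0.12 on the log2 scale from P18 to P75 (6.32-fold, limma adjusted p = 5.22e-10), the steepest change among the 8 genes. From 6 months to 24 months it fell by 0.36 ± 0.12 (adjusted p = 0.0407), and this call was kept in 14 of 23 alternative settings, with adjusted p between 0.013 and 0.185. Over the whole span, 24 months against P18, the decrease was 9.53-fold (limma adjusted p = 1.06e-11).

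Gsn encodes gelsolin, which severs and caps actin filaments and is known for actin disassembly as the sheath spreads. It had 7130, 6101 and 4514 at P18, 1789, 2052 and 2137 at P75, 2514, 2597 and 2196 at 6 months and 2015, 2063 and 2448 at 24 months. The P18 libraries lay apart from all later ones, and the later ages lay close together. Gsn fell by 1.55 ± 0.14 on the log2 scale from P18 to P75 (2.93-fold, limma adjusted p = 7.51e-07). Neither the difference of 0.29 ± 0.14 between 6 months and P75 (adjusted p = 0.084) nor that of -0.17 ± 0.14 between 24 and 6 months (adjusted p = 0.415) passed.

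Ermn encodes ermin, an actin-binding protein of late oligodendrocytes. It had 7011, 6833 and 3459 at P18, 4767, 4076 and 5077 at P75, 5577, 6149 and 4836 at 6 months and 4821, 5068 and 4987 at 24 months. The ages overlapped, and P18 held both the highest and the lowest values. The difference between P75 and P18 was -0.25 on the log2 scale with a 95% confidence interval from -0.66 to 0.16 (limma adjusted p = 0.322), and the F test gave adjusted p = 0.532. P18 replicate 3 decided this result. Without it Ermn was lower at P75 than at P18 by 0.58 (log2 -0.583, adjusted p = 0.000304), higher at 6 months than at P75 by 0.25 (adjusted p = 0.0331) and lower at 6 months than at P18 (log2 -0.333, adjusted p = 0.0115).

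Tppp encodes a tubulin polymerization-promoting protein that nucleates microtubules in oligodendrocytes. Its values were 13340, 15318 and 8051 at P18, 11776, 8020 and 8265 at P75, 11780, 13992 and 10638 at 6 months and 8145, 8492 and 8078 at 24 months. The 24-month libraries were alike and lay below all 6-month libraries, but overlapped those of P75 and P18. Tppp was lower at 24 months than at P18 by 0.52 ± 0.19 on the log2 scale (limma adjusted p = 0.0269, kept in 18 of 23 alternative settings, adjusted p 0.000119 to 0.152). Between 24 and 6 months the difference was -0.55 ± 0.19 (adjusted p = 0.0551), and between P75 and P18 it was -0.36 ± 0.19 (adjusted p = 0.15). Without P18 replicate 3 Tppp was lower at P75 than at P18 (log2 -0.635, adjusted p = 0.00193), higher at 6 months than at P75 (log2 0.389, adjusted p = 0.0162) and lower at 24 than at 6 months (log2 -0.55, adjusted p = 0.00577).

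Anln encodes anillin, which links actin and septins and is needed to assemble septin filaments in the innermost layer of mature myelin. It had 2258, 2103 and 1136 at P18, 2393, 2173 and 2559 at P75, 2709, 3093 and 2159 at 6 months and 2308, 2545 and 2388 at 24 months. All 24-month values lay above all P18 values, though only slightly above P18 replicate 1. Anln was higher at 6 months than at P18 by 0.58 ± 0.19 on the log2 scale (limma adjusted p = 0.0135) and higher at 24 months than at P18 by 0.46 ± 0.19 (adjusted p = 0.0443, kept in 10 of 23 alternative settings). Without P18 replicate 3 neither passed, with log2 0.269 (adjusted p = 0.0549) and 0.147 (adjusted p = 0.29).

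Sept4 encodes a septin, one of the filament-forming GTP-binding proteins that support the axon-facing side of mature myelin. It had 11430, 12200 and 8346 at P18, 12754, 12977 and 12317 at P75, 10185, 12438 and 9944 at 6 months and 9790, 9261 and 8766 at 24 months. All P75 values lay above all P18 values and above all 24-month values. Sept4 was lower at 24 months than at P75 by 0.45 ± 0.13 on the log2 scale (limma adjusted p = 0.00925), and this call was kept in all 23 alternative settings. The difference between P75 and P18 was 0.27 with a 95% confidence interval from -0.004 to 0.543 (adjusted p = 0.108). Without P18 replicate 3 it was 0.103 (adjusted p = 0.47). Sept4 was then lower at 24 months than at P18 (log2 -0.35, limma adjusted p = 0.00814) and lower at 6 months than at P75 (log2 -0.231, adjusted p = 0.0456).

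Cryab encodes alpha-B crystallin, a small heat shock protein that holds unfolded proteins, including cytoskeletal ones, in solution. Its values were 7470, 7805 and 3523 at P18, 5114, 5769 and 5996 at P75, 3551, 4692 and 4124 at 6 months and 3276, 3996 and 4791 at 24 months. P18 was widely spread, and all P75 values lay above all 6-month and 24-month values. Cryab was lower at 6 months than at P18 by 0.53 ± 0.22 on the log2 scale (limma adjusted p = 0.049, kept in 9 of 23 alternative settings) and lower at 24 months than at P18 by 0.57 ± 0.22 (adjusted p = 0.0346, kept in 17). Without P18 replicate 3 these differences were -0.898 (adjusted p = 1.52e-05) and -0.942 (adjusted p = 8.64e-06), and Cryab was also lower at P75 than at P18 (log2 -0.444, adjusted p = 0.0131).

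Between P18 and P75, the step from active myelination to the young adult, 3 of the 8 genes fell (Cnp, Sirt2 and Gsn), against 18.7% of all genes tested, and 0 rose, against 21.7%. Without the adjustment, 1 of the 8 was higher at p at most 0.05 (Anln, log2 0.43). No share over all genes was counted at that unadjusted threshold, here or in the later comparisons. EdgeR and DESeq2 on the recovered reads each called 0 higher and the same 3 lower. The median change of the 8 was -0.30 on the log2 scale, beside 0.02 over all genes. Libraries of the ages did not overlap for 4 of the 8 genes, the 3 named and Sept4, against 47.1% of all genes. Without P18 replicate 3, 6 of the 8 were lower, with Ermn, Tppp and Cryab added, against 19.3% of all genes in that fit, and 0 were higher, against 23%. Of 10 markers of newly formed oligodendrocytes, 9 were lower and 1 higher at P75, with a median of -0.97. Their summed level went the other way, from between 33650 and 80461 in the P18 libraries to between 82285 and 120400 in those of P75. Their part in the result was not tested.

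**Figure D2:**
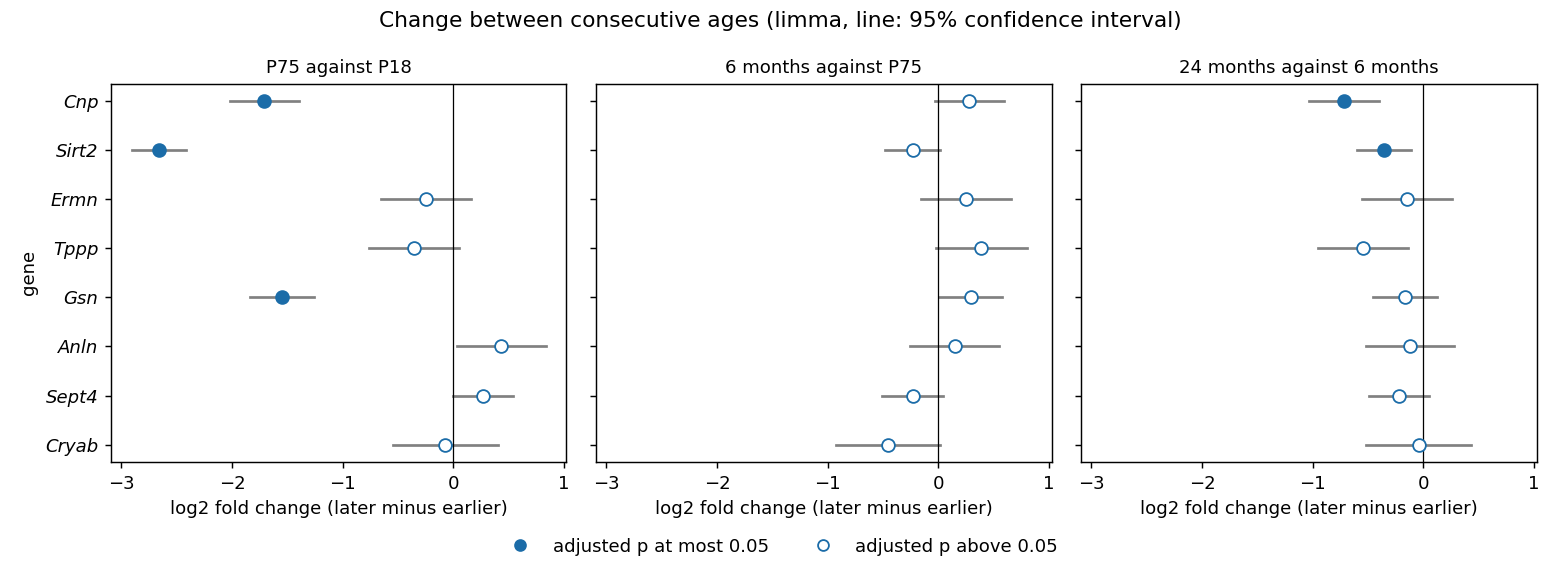
Log2 fold change (later minus earlier age) of the 8 genes for the 3 pairs of consecutive ages, with 95% confidence intervals from limma and filled points where the adjusted p was at most 0.05. Cnp, Sirt2 and Gsn lie far below 0 for P75 against P18, no point is filled for 6 months against P75, and Cnp and Sirt2 are filled for 24 months against 6 months.

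From P75 to 6 months 0 of the 8 genes passed in either direction by limma, by edgeR or by DESeq2, against 25.4% of all genes lower and 27.1% higher. Without the adjustment 1 was higher (Gsn), with no share over all genes counted. Libraries did not overlap for Gsn and Cryab, 2 of the 8, against 62.3% of all genes. This step depended on P18 replicate 3 through the shared estimate of spread. Without that library 4 of the 8 were higher at 6 months (Cnp, Ermn, Tppp and Gsn), against 29.2% of all genes in that fit, and 2 lower (Sept4 and Cryab), against 27.7%.

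From 6 to 24 months Cnp and Sirt2 fell, 2 of the 8 against 8.34% of all genes, and 0 rose, against 10.8%. Among all calls, 56.5% were higher at 24 months, but 44.9% when libraries were scaled to equal sums without Mbp and 48.2% after quantile normalization. Without the adjustment 3 of the 8 were lower and 0 higher, again with no share over all genes counted. With P18 replicate 3 left out, limma called 3 lower (Tppp added), against 11.6% of all genes, and 0 higher, against 14.9%. EdgeR called Cnp alone lower, DESeq2 called Cnp, Sirt2 and Tppp, and each called 0 higher. Libraries did not overlap for 4 of the 8 genes (Cnp, Sirt2, Tppp and Sept4), against 43.2% of all genes.

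Comparisons across longer spans share libraries with those above. At 6 months against P18, 4 genes were lower (Cnp, Sirt2, Gsn and Cryab), against 30.8% of all genes, and Anln was higher, against 32.2%. Libraries did not overlap for 3 of the 8 (Cnp, Sirt2 and Gsn), against 66.4% of all genes. When P18 replicate 3 was left out, 5 were lower (Ermn added), against 30.3% of all genes, and 0 higher, against 32.2%. At 24 months against P18, 5 were lower (the same 4 and Tppp), against 30.5%, and Anln was higher, against 32.0%. Libraries did not overlap for 4 (Cnp, Sirt2, Gsn and Anln), against 66.1%. Leaving that library out, 7 were lower (Ermn and Sept4 added), against 30.4%, and 0 higher, against 31.8%. Quantile normalization moved the median of all genes in that comparison to -0.11 on the log2 scale, and edgeR and DESeq2 did not call Anln there. Against P75, 3 genes were lower at 24 months (Cnp, Sirt2 and Sept4), against 20.7% of all genes, and 0 were higher, against 25.0% (0 also without the adjustment, by edgeR and by DESeq2). Libraries did not overlap there for 4 (the same 3 and Cryab), against 56.9%. With it left out, 4 were lower (Cryab added), against 23.9%, and 0 higher, against 27.4%.

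The unequal courses changed the order of the genes. Levels were compared per kilobase of the longest annotated transcript. At P18 Sirt2 was first with 14529 ± 2461 (SD, n = 3) per kilobase and Cnp second with 12562 ± 2753, and their SD ranges overlapped. Cryab followed with 5610 ± 2132 and Sept4 with 4990 ± 955, also overlapping. Tppp (2404 ± 738), Gsn (2230 ± 497) and Ermn (1587 ± 551) overlapped in turn, and Anln was last with 398 ± 132.

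At P75 Sept4 was first with 5938 ± 157 per kilobase, followed by Cryab (5037 ± 410) and Cnp (3783 ± 206) with no overlap of SD ranges. Sirt2 had dropped to the fourth place with 2278 ± 82 and overlapped Tppp at 1838 ± 413. At 6 months Sept4 (5082 ± 644), Cnp (4626 ± 706) and Cryab (3691 ± 511) overlapped in turn. At 24 months Sept4 (4341 ± 240), Cryab (3600 ± 679) and Cnp (2790 ± 161) again overlapped in turn, Tppp (1619 ± 44) lay above Sirt2 (1511 ± 22), and Sirt2 lay above Ermn (1364 ± 35). Gsn and Anln held the 2 lowest levels per kilobase at P75, 6 months and 24 months, Anln the lowest.

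Ratios of 2 genes within a library do not depend on the size factor. Of the 28 pairs among the 8 genes, 26 had a log2 ratio that differed between ages (exact permutation test of the F statistic over all 15400 partitions, adjusted over 28 pairs). No share over pairs of other genes was computed, so this count has no background beside it. Of all genes tested, 77.4% differed at some age in the moderated F test. For 4 pairs p reached 6.49e-05, the smallest that these partitions can give. The 2 pairs that did not pass were Ermn/Tppp (exact permutation test, adjusted p = 0.0978) and Sept4/Cryab (adjusted p = 0.148), which does not show that their ratios were constant.

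The 3 genes that fell early did not fall by the same factor. The log2 ratio of Cnp to Sirt2 averaged 0.23 ± 0.23 (SD, n = 3) in the P18 libraries and 1.19 ± 0.06, 1.70 ± 0.17 and 1.34 ± 0.09 in those of P75, 6 months and 24 months, and no P18 library overlapped a later one (exact permutation test, adjusted p = 0.000455). The ratio of Cnp to Gsn was 2.63 ± 0.20 in the P18 libraries, then 2.47 ± 0.10 and 2.46 ± 0.10, and 1.90 ± 0.13 in the oldest. It was lowest in the 24-month libraries, with no overlap (adjusted p = 0.00949, exact permutation test).

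The ratio of Ermn to Anln separated P18 from every later age with little scatter. It averaged 1.65 ± 0.05 in the P18 libraries, then 0.96 ± 0.05, 1.07 ± 0.09 and 1.04 ± 0.04 in the later ones, in order of age (exact permutation test, adjusted p = 0.00705). P18 replicate 3 lay with the other P18 libraries here, all 3 falling between 1.61 and 1.70. Anln, whose protein is needed to assemble septin filaments, and Sept4, which encodes a septin, did not keep 1 ratio either. The log2 ratio of Anln to Sept4 was -2.58 ± 0.27 and -2.42 ± 0.16 for the younger ages, P18 and P75, and -2.04 ± 0.15 and -1.94 ± 0.12 for the older ones (exact permutation test, adjusted p = 0.00996).

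**Figure D3:**
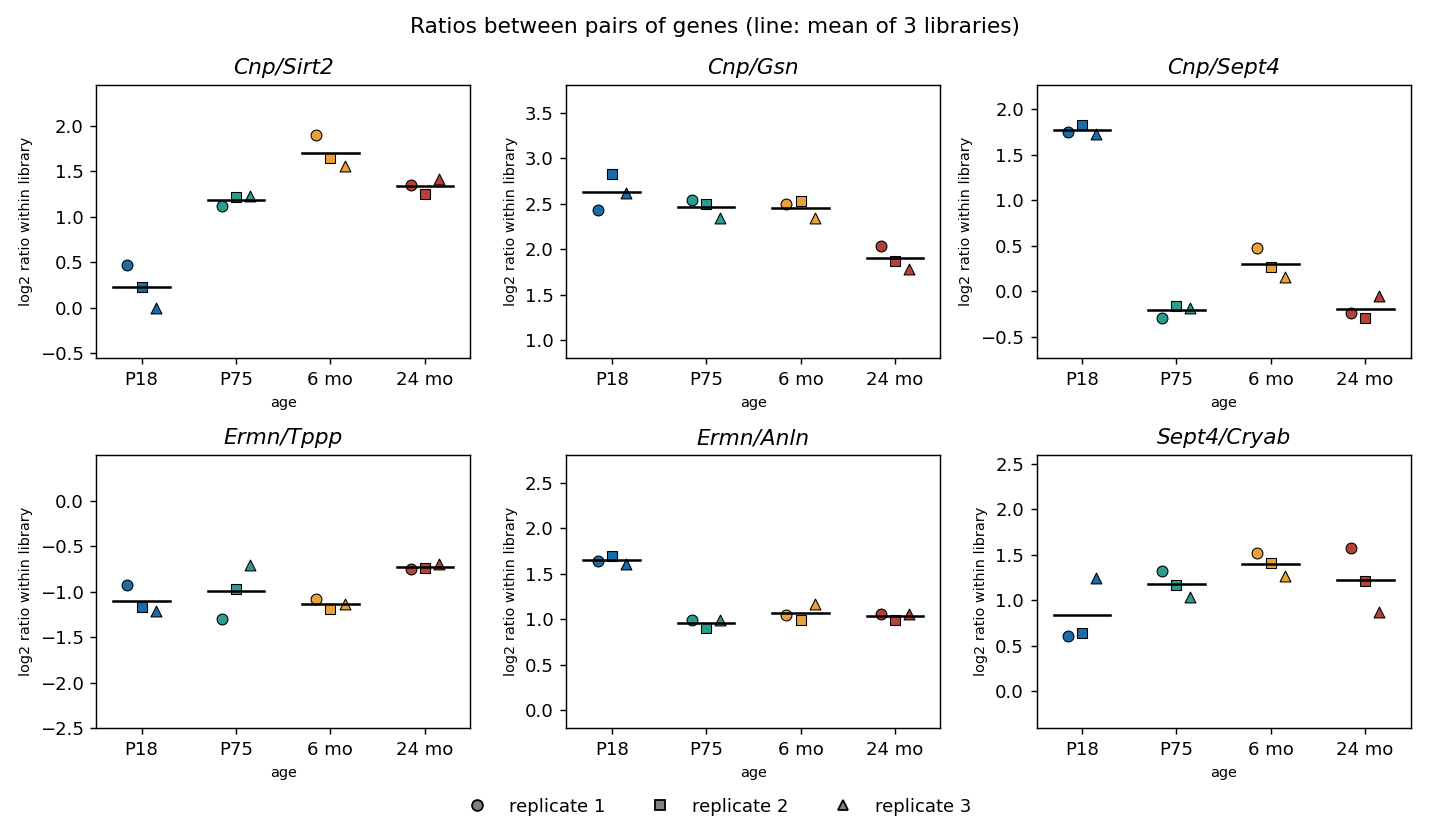
Log2 ratio of 2 genes within each library by age, with 1 symbol per library, a line at the mean of 3 libraries and the same height of axis (3 log2 units) in each panel. Cnp/Sirt2, Cnp/Sept4 and Ermn/Anln separate P18 from the later ages, and Cnp/Gsn is lowest at 24 months. For Ermn/Tppp and Sept4/Cryab, which did not pass, the P75 libraries overlap those of every other age. Some other ages lie apart: Ermn/Tppp at 24 months lies above P18 and 6 months, and Sept4/Cryab at P18 lies below 6 months.

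Set against Mbp, 6 of 8 ratios differed between ages (exact permutation test, adjusted over 8). The exceptions were Cnp/Mbp (adjusted p = 0.0821, exact permutation test) and Gsn/Mbp (adjusted p = 0.905). These ratios were added after the values had been seen, and no share over ratios of other genes to Mbp was computed. The log2 ratio of Sirt2 to Mbp averaged -6.86 ± 0.52 (SD, n = 3) in the P18 libraries, followed in order of age by -8.01 ± 0.32, -8.41 ± 0.29 and -8.85 ± 0.26 (exact permutation test, adjusted p = 0.00312). In the other direction, Anln to Mbp was lowest in the P18 libraries with -10.97 ± 0.36, and stood at -9.04 ± 0.34, -9.05 ± 0.35 and -9.26 ± 0.31 afterwards (exact permutation test, adjusted p = 0.0197). Sept4 to Mbp had -8.39 ± 0.42, then -6.62 ± 0.31, -7.01 ± 0.31 and -7.32 ± 0.20 (adjusted p = 0.00416, exact permutation test). Mbp itself was widely spread, and its difference between P75 and P18 did not pass (log2 -1.503 ± 0.601 SE, limma adjusted p = 0.0561). That SE is moderated, so it draws on the spread of other genes too. All P18 values of Mbp lay above all P75 values (lowest 2134344, highest 1598645), a lack of overlap found for 47.1% of all genes.

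Genes of the same families were counted next. The counts leave the 8 out and are for P75 against P18, then for 24 months against 6 months, beside medians over all genes of 0.02 and 0.03. Over all genes, 18.7% were lower and 21.7% higher at the first of these steps, and 8.34% and 10.8% at the last. Counts without P18 replicate 3, added after the values had been seen, are to be set against 19.3% lower and 23% higher at the first step and 11.6% and 14.9% at the last. Of 16 septins and septin partners 9 fell and 0 rose (median -0.40), and later 6 fell and 0 rose (median -0.31). The counts without P18 replicate 3 were 10 lower and 1 higher, and later 9 and 0. Sept2, another septin, went from 3843 ± 625 (SD, n = 3) at P18 to 2370 ± 181 at P75 (log2 -0.69, limma adjusted p = 8.85e-05). Cdc42, a small GTPase whose effectors bind septins, went from 9474 ± 99.9 to 6273 ± 138 (log2 -0.59, limma adjusted p = 2.05e-05). Cdc42ep2, one of those effectors, went from 685.6 ± 68.5 to 353.1 ± 18 (log2 -0.95). Sept4 and Anln did not pass at this step, nor did 7 of the 16.

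Among 37 genes of the gelsolin family and of actin turnover 19 fell and 0 rose (median -0.36), and from 6 to 24 months 4 fell and 3 rose (median -0.01), and without P18 replicate 3 the counts were 19 lower and 0 higher, then 4 and 4. Arpc1b, a subunit of the actin-branching Arp complex, had 3294 ± 853 at P18, 677.3 ± 60.4 at P75 and 344.8 ± 25.8 at 6 months (log2 -2.25 at the first step, limma adjusted p = 7.14e-08). Its partner subunit Arpc5 fell too (log2 -0.76, limma adjusted p = 6.11e-06). Tmsb10, a thymosin that binds actin monomers, fell mainly between P75 and 6 months, from 5804 ± 658 to 2241 ± 538 (log2 -1.39, limma adjusted p = 8.66e-07). Gsn (log2 -1.55) fell at the same step as 19 of the 37, while 18 did not pass, and its change was larger than their median of -0.36.

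For 14 other linkers of actin to the membrane, 7 fell and 0 rose (median -0.31), and later 1 fell and 1 rose (median -0.14). The same library left out, 7 were lower and 0 higher, then 5 and 1. Add1, an adducin of the spectrin skeleton, had 6262 ± 123 in the P18 libraries, then 4332 ± 329, 5876 ± 231 and 4449 ± 258, and passed at each of the 3 steps. Slc9a3r1, a scaffold that binds ezrin, fell at the first step (log2 -0.47, limma adjusted p = 0.000805), as did Epb4.1l2, a band-4.1 protein (log2 -0.70, adjusted p = 0.000117).

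Microtubule genes beside Tppp numbered 22, of which 12 fell and 2 rose (median -0.26), and later 7 fell and 0 rose (median -0.20). In the fit without P18 replicate 3, 10 were lower and 1 higher, then 8 and 1. Stmn2, a neuronal stathmin, had 19830 ± 1450 at P18 and 12890 ± 600 at P75 (log2 -0.62, limma adjusted p = 7.35e-05). Of the 14 neuronal markers, Stmn2 among them, 6 fell and 1 rose at this step. Their summed level overlapped, lying between 223370 and 269180 at P18 and between 245760 and 277170 at P75. Snap25 went from 109010 ± 11310 at P18 to 141430 ± 10020 at P75. Mapre1, which binds growing microtubule ends, fell by 0.70 on the log2 scale (limma adjusted p = 5.26e-05), and Dpysl5, a collapsin response mediator, fell as well (log2 -1.15, adjusted p = 1.02e-05).

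Sirtuins and tubulin acetylation genes beside Sirt2 numbered 8, of which 3 fell and 1 rose at the first step (median 0.04), and 0 fell and 2 rose at the last (median 0.10). In the same reduced fit, without P18 replicate 3, 2 were lower and 1 higher at the first step, with the last unchanged at 0 and 2. Atat1, the tubulin acetyltransferase, had 1606 ± 102 at P18 and 747.1 ± 147 at P75 (log2 -1.12, limma adjusted p = 3.82e-06), the same direction as the deacetylase Sirt2. Sirt3, a mitochondrial sirtuin, fell by 0.29 (adjusted p = 0.0197), and Sirt1, a nuclear one, rose by 0.53 on the log2 scale (limma adjusted p = 0.000363).

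Small heat shock genes beside Cryab numbered 6. From P18 to P75, 1 fell and 0 rose (median -0.21), from P75 to 6 months 4 fell and 0 rose (median -0.72, against 25.4% and 27.1% of all genes), and from 6 to 24 months 0 fell and 2 rose (median 0.32). These counts were the same without P18 replicate 3. Hspb8 fell by 0.70 on the log2 scale from P75 to 6 months (limma adjusted p = 0.00016) and Hspb11 changed too (log2 -1.01, adjusted p = 3.46e-05). Hspb6 fell between P18 and P75 (log2 -0.86, limma adjusted p = 0.000324). Cryab differed by -0.46 from P75 to 6 months and did not pass (adjusted p = 0.097).

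Myelin genes outside the 8 split into 10 that fell and 7 that rose of 24 at the first step (median -0.24), and later 2 fell and 1 rose (median -0.14). After leaving out P18 replicate 3, 13 were lower and 7 higher, then 5 and 2. Cldn11, the claudin of myelin tight junctions, went from 15560 ± 2710 to 6317 ± 834 (log2 -1.29, limma adjusted p = 2.08e-06). Qdpr, dihydropteridine reductase, rose from 6378 ± 2110 at P18 to 51110 ± 3890 at P75 (log2 3.06, limma adjusted p = 1.24e-07). Omg, oligodendrocyte myelin glycoprotein, rose at the first 2 steps, from 2491 ± 97.4 to 3623 ± 183 and 4547 ± 278.

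**Figure D4:**
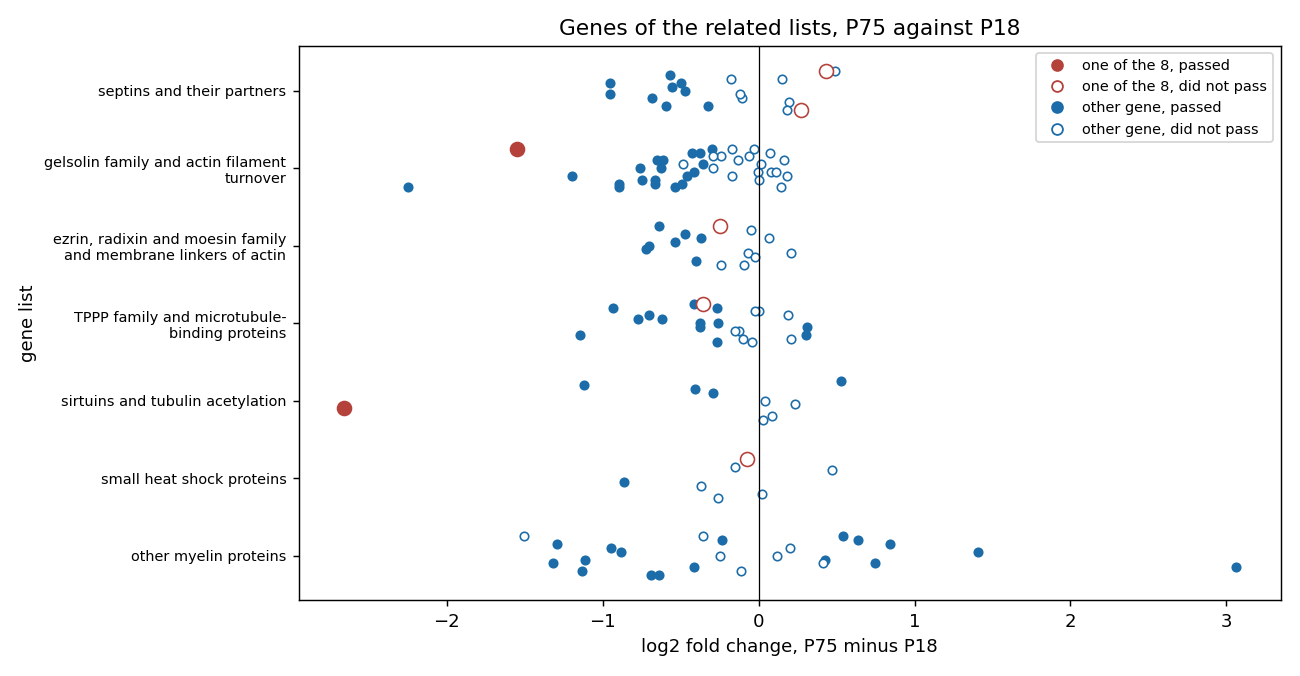
Log2 fold change of P75 minus P18 for each tested gene of the 7 related lists, with the 8 genes as large red points and filled points where the adjusted p was at most 0.05. Sirt2 and Gsn lie at the low end of their lists. Anln and Sept4 lie above 0 and are not filled, and so do Sept1 (0.49), Sept10, Cdc42ep3 and Cdc42ep5 of the same list. Of the 16 other genes of that list, 9 are filled and below 0, 7 of them septins. Cnp is in no list.

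The genes whose levels followed each gene most closely over the 12 libraries were ranked by Pearson's r of log2(value + 1) among 11598 candidate genes. These r are descriptions, since the libraries share ages and fraction. Closest to Cnp were Fntb (0.985), Sh3bp5l (0.983) and Rap2a (0.982), and closest to Sirt2 were Fyn (0.992), Atxn7l3b (0.992) and Cdc42 (0.991). Gsn was followed by Aacs (0.985) and by the myelin genes Cldn11 (0.984) and Mog (0.978). For Anln they were Gatm (0.954), Etv1 (0.942) and Rassf4 (0.936), for Ermn Arfip1 (0.953), Spag9 (0.920) and Kat2b (0.910), and for Tppp Fnbp1 (0.958) and Phldb1 (0.938). Sept4 had Nudt4 (0.936), Hadhb (0.917) and Nmral1 (0.906), and Cryab had Oaz3 (0.939), Ctsk (0.937) and Tprkb (0.920). No gene of the 8 was among the closest 3 of another. Among themselves, r was 0.959 for Cnp and Sirt2, 0.948 for Cnp and Gsn, 0.932 for Sirt2 and Gsn, 0.787 for Ermn and Tppp and -0.589 for Sirt2 and Anln.

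Other cell types also shifted with age, and their part in the results above was not tested. The sum of 12 microglia markers lay between 7899 and 9056 in the P18 libraries, 12087 and 13549 in those of P75, 13624 and 15478 at 6 months, and 21686 and 27120 in the oldest. Summed markers of neurons were 223370 to 269180 at P18 and 219990 to 231120 at 24 months, those of astrocytes 113050 to 153800 and 152280 to 160190, and those of oligodendrocyte precursors 20374 to 21286 and 15054 to 16729. At the same 2 ages, ependyma and choroid plexus markers went from between 13054 and 15167 to between 42851 and 47547, markers of mural cells and fibroblasts from between 1544 and 1862 to between 3079 and 3761, and endothelial ones from between 998 and 1074 to between 1250 and 1342. Erythrocyte markers were between 400 and 541 at P18 and between 36.1 and 48.5 at 24 months, with Hba-a1 and Hbb-b1 listed at 0 in every library. Mature oligodendrocyte markers, Mbp above all, summed to between 2458000 and 6168000 at P18 and between 1507500 and 2105600 at 24 months.

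Some genes overlap others in the annotation (RefSeq, GRCm38). The strand setting of the counting is not given in the sources used here, so how reads in the overlaps were assigned is not known. Cnp overlaps Dnajc7, Anln overlaps 9530077C05Rik, and Cryab overlaps Hspb2 and 2310030G06Rik. Hspb2 had at most 24.1, far below Cryab.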

How the data were processed

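The deposited table gives a signal per gene and library. The authors divided read counts by 1 size factor per library, and TopHat, HTSeq, DESeq and the build mm9 are named, without versions, in the submitters' processing notes. RNA extraction, library construction and batches are not given in the sources used here. Values were whole multiples of 1 step per library (100% within a tolerance of 0.0061), which gave the reads. Genes with a value of at least 10 in at least 3 of the 12 libraries were tested (14987 of 21937) with limma 3.58.1 (R 4.3.3, trend) on log2(value + 1), a scale that understates changes of low genes. The fit held 12 libraries in 4 ages, tests were two-sided, and the Benjamini-Hochberg adjusted p threshold was 0.05 per contrast and for the moderated F test. EdgeR 4.0.16 (quasi-likelihood) and DESeq2 1.42.0 on the recovered reads, other pseudocounts, filters and scalings, a replicate block and leaving out each library were alternatives. The script was tested on simulated data.

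Ratios were tested in scipy 1.17.1. Transcript lengths came from GENCODE M21, and 7 of the 8 genes matched the RefSeq promoter table, Sept4 as Septin4. Named beside the 8 were, per related gene list, the 3 tested genes with the lowest F test p and a mean of at least 50, the 3 genes with the highest correlation per gene, and defining markers, of which some are not reported here. Marker lists covered 10 cell types. The 8 genes and the lists were chosen with earlier results of these data known.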

Additional observations from a re-analysis of the deposited data

How the results depend on the processing

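Of 48 results (8 genes, 6 pairs of ages), 19 kept direction and side of the threshold under all 23 alternatives, among them 12 of the 19 that had passed. Those 12 include Cnp, Sirt2 and Gsn for P75 against P18. Depth limited little, with a counting error of at most 2.97%. The spread between 3 libraries per age, above all P18 replicate 3, set the limits, and causes of the changes below were not tested. Replicate numbers gave no clear pairing of the libraries. Same-numbered pairs had r from -0.185 to 0.165, with 3 of 18 above 0.1, beside -0.149 to 0.189 for other pairs. Of 12 libraries, 6 correlated best with their own number. Whether the numbers mark a batch was not tested. With the replicate block, 5871 genes were called for P75 against P18 and 2583 for 24 against 6 months, with 3 of the 8 genes lower in each, and 6 of the 8 differed at some age.

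Counts among the 8 genes changed as follows. Without a filter, 1 was lower at 24 against 6 months, 0 were higher at 24 months against P18 and 4 differed at some age. After quantile normalization 1 was higher and 1 lower at 6 months against P75. With equal sums without Mbp, edgeR and DESeq2, 0 were higher at 24 months against P18, and edgeR found 1 lower at 24 against 6 months. In fits of only the 2 ages compared, 2 were higher and 1 lower at 6 months against P75, and 0 higher at 24 months against P18.

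Leaving out each library in turn gave ranges. Among all genes tested, calls in both directions together ranged from 5118 to 6335 for P75 against P18. They ranged from 6576 to 8520 for 6 months against P75 and from 8430 to 9501 for 6 months against P18. The ranges were 8505 to 9429 for 24 months against P18 and 5575 to 7687 for 24 months against P75. At some age, 10947 to 11928 differed. For P75 against P18, 0 to 2 of the 8 were higher and 3 to 6 lower. For 6 months against P75, 0 to 4 were higher and 0 to 2 lower. For 24 against 6 months, 1 to 3 were lower, and 1244 to 3963 of all genes were called, beside 2876 with all libraries: 1279 and 1499 on leaving out replicates 1 and 2 of 6 months, and 1527 and 1244 on leaving out replicates 1 and 2 of 24 months. For 6 months against P18, 0 to 1 were higher and 3 to 5 lower. For 24 months against P18, 0 to 1 were higher and 3 to 7 lower, and for 24 months against P75, 2 to 4 were lower. From 3 to 7 of the 8 differed at some age, 24 to 26 of the 28 ratios and 5 to 6 of the 8 ratios to Mbp. Tppp/Cryab, Ermn/Sept4 and Cryab/Mbp were among the ratios lost.

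Directions reversed in settings of 8 results that had small changes with all libraries and had not passed. For Ermn, 6 months against P18, the change was 0.00, -0.010 with TMM scaling, -0.027 with equal sums without Mbp, -0.074 with edgeR and -0.065 with DESeq2. Leaving out each library gave -0.333 to 0.176, and -0.481 to 0.028 for Ermn, 24 months against P18. For Tppp, 6 months against P18, it was -0.023 with edgeR, -0.014 with DESeq2 and -0.245 to 0.219 on leaving out a library, and for Tppp, 24 months against P75, -0.260 to 0.017. For Anln, 24 months against P75, it was -0.016 with quantile normalization, -0.012 with equal sums without Mbp and -0.037 to 0.081 on leaving out a library. The same ranges were -0.129 to 0.145 for Sept4, 6 months against P18, -0.444 to 0.130 for Cryab, P75 against P18, and -0.179 to 0.095 for Cryab, 24 against 6 months. Of the reversed values, 1 passed the threshold, that of Ermn at 6 months against P18 without P18 replicate 3 (adjusted p = 0.0115). Per-kilobase order depends on the transcript chosen: without the length correction Cnp came first at P18 and at 6 months.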
